A study of Solanum lycopersicum with 4 samples.

Results

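The very short genes of the tomato M82 annotation are those of 300 bp or less on chromosomes 1 to 12, and 3148 of the 35821 genes counted (8.79%) met this rule. They were taken from the length column of the count table alone, and the genes of the unplaced sequence numbered as chromosome 0 were left out. Their expression was compared by RNA-seq of poly(A) RNA between *ddm1* (2 libraries) and WT (2 libraries), both sampled as leaf number 4 of *Solanum lycopersicum* cv. M82 plants that were 1 month old and had grown under the same long-day conditions. The *ddm1* plants are double mutants in both tomato copies of DDM1 (*Slddm1a* and *Slddm1b*), so the loss of either copy alone cannot be read from these data, and WT is the unmutated M82 cultivar. The plastid genes used to check the leaf tissue, *psbA* to *psbD*, *psaA*, *psaB* and *rbcL*, which encode photosystem proteins and the large subunit of Rubisco, had between 28 and 554 counts in the *ddm1* libraries and between 54 and 989 in WT. All 7 had more counts in both WT libraries than in either *ddm1* library, and the part of this difference in the results below was not tested.

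DDM1 is a chromatin remodeler of the SNF2 family. In *Arabidopsis thaliana* it is needed to keep DNA methylation in heterochromatin, where it holds transposable elements (TEs) and some genes silent. In tomato, heterochromatin lies mainly in the large gene-poor middle parts of the chromosomes. Very short gene models can hold genes for small proteins, but also partial models and remnants of other genes or of TEs, and their length does not tell these kinds apart. The files do not pair the identifiers with gene names, so no function is given for single genes here, and identifiers are given for 2 genes that rose and for 2 that fell.

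The short genes ranged from 10 to 300 bp with a median of 208 bp. The length of 2415 of them (76.7%) was a multiple of 3, against 46.2% of all genes, so most of these intervals have the form of a coding length without UTRs or introns. By identifier, 2262 carried a Solyc number and 886 a TomatoPan number, the prefix of genes from the tomato pan-genome. The strands were shared evenly, with 1557 genes on the plus strand and 1591 on the minus strand. Another annotated gene overlapped 302 of them on the opposite strand and 5 on the same strand. They lay in sparser surroundings than other genes, with a median of 52 annotated genes within 500 kb against 106 for all genes. Regions were called gene-poor where at most 46 genes lay within 500 kb, the lowest 25% of all genes on the chromosomes. By this definition 1472 short genes (46.8%) were in gene-poor regions, against 25.4% of all genes.

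Most short genes had no reads in these leaves. No count was found for 1910 of the 3148 genes (60.7%) in any of the 4 libraries, which held between 5462981 and 6887057 counts. A count of 0 here allows up to 3 counts per library and does not show that a gene is not transcribed, and a short gene collects fewer reads than a long one of the same level. Of the 1238 genes with a count, 449 passed the filter on low counts and were tested, and 789 were counted but too low for the test. The largest count of any short gene in a library was 310. PCR duplicates were discarded from the single-end reads, which limits the number of distinct reads a short gene can give. How far this held down the highest counts was not tested.

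More short genes were expressed in *ddm1* than in WT. With expression set at 1 CPM (counts scaled to the total of the library), which is between 5.46 and 6.89 counts in these libraries, 16.8% and 16.9% of the short genes were expressed in the *ddm1* libraries (529 and 531 genes). In WT the shares were 13.2% and 13.1% (417 and 412 genes). The Wilson 95% intervals, which cover counting error only, ran from 15.5% to 18.2% for the lower *ddm1* library and from 12.1% to 14.5% for the higher WT library, so neither *ddm1* library overlapped a WT library. The means were 16.8% ± 0.0449 (SD, n = 2) and 13.2% ± 0.112 (SD, n = 2), a difference of 3.67 percentage points or a ratio of 1.28. Over all genes of the table the shares were 61.2% and 56.4%, a difference of 4.77 points or a ratio of 1.08. At 1 CPM the short genes thus gained fewer points than all genes, from a lower start. With 2 libraries against 2, an exact permutation test cannot give a p-value under 0.33, and the difference is given here as a description.

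In both *ddm1* libraries 474 short genes were expressed (15.1%, against 59.5% of all genes), and in both WT libraries 376 (11.9%, against 55%). They had 328 genes in common. A further 146 genes met the minimum in both *ddm1* libraries but not in both WT libraries, and 115 of these met it in neither WT library. In the other direction 48 genes met it in both WT libraries only, and 24 of these in neither *ddm1* library. Over all 35821 genes, 2381 met it in both *ddm1* libraries but not in both WT libraries, 1811 of them in neither WT library. In the other direction there were 765 of all genes, 398 of them in neither *ddm1* library. Counting every short gene with at least 1 count gave 31.5% and 31.6% in *ddm1* and 23.0% and 22.3% in WT. The *ddm1* libraries were the larger ones, and after all libraries were thinned to the same 5462981 counts these shares were 30.5% and 30.3% in *ddm1* against 22.7% and 22.3% in WT. The differences of the means were 8.89 points and, thinned, 7.89 points, against 7.8 and 6.98 points for all genes. With this minimum the short genes thus gained more points than all genes, the reverse of the order at 1 CPM.

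Longer genes were expressed more often. At 1 CPM the ratio between the genotypes was lower for them, while the difference in percentage points was higher in both classes over 600 bp. With at least 1 count the difference was 6.68 points for genes over 1000 bp, against 8.89 for the short genes. Genes over 300 to 600 bp gave a *ddm1* to WT ratio of 1.14 and a difference of 3.42 points, genes over 600 to 1000 bp 1.20 and 5.95 points, and genes over 1000 bp 1.07 and 5.09 points. These values were not compared by a test. A ratio of shares can be larger where the WT share is lower, and the WT share was lowest for the short genes.

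**Figure D1:**
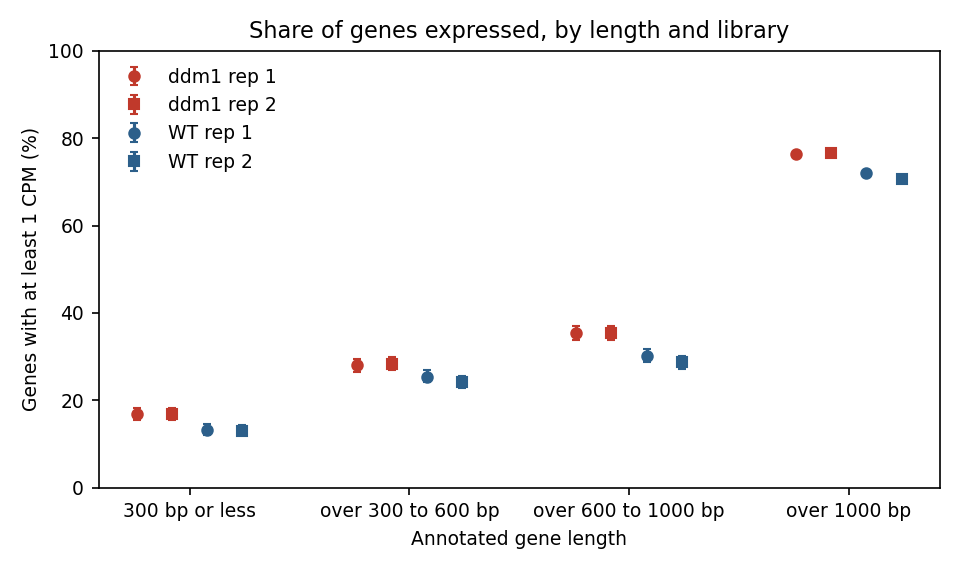
Percentage of genes with at least 1 CPM (y axis) in 4 classes of annotated gene length (x axis), with 1 point per library, red for *ddm1*, blue for WT, and Wilson 95% intervals as bars. In the class of 300 bp or less the *ddm1* libraries were at 16.8% and 16.9% and the WT libraries at 13.2% and 13.1%.

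The short genes together took 0.389% and 0.410% of all counts in the *ddm1* libraries and 0.341% and 0.327% in WT. The mean was higher in *ddm1*, by 0.26 on the log2 scale, and the libraries of the genotypes did not overlap. For genes over 300 to 600 bp the same log2 ratio was 0.07 and for genes over 1000 bp it was 0.00.

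Among the 449 tested short genes, up-regulation was more frequent than down-regulation. By edgeR's quasi-likelihood test at a Benjamini-Hochberg adjusted p-value under 0.05 over all 21289 genes tested, 114 short genes (25.4%) were up-regulated in *ddm1*, and 25.3% of all genes tested were. In the other direction 53 short genes (11.8%) were down-regulated, and 23.7% of all genes tested were. With this filter the share of up-regulated short genes was thus at the background, and the share of down-regulated ones was below it. The median log2 fold change was 0.22 over the short genes tested and 0.02 over all genes tested. Without adjustment, 128 short genes were higher and 71 lower at p under 0.05.

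The libraries of the genotypes did not overlap in 210 short genes that were higher in *ddm1* (46.8%, against 40.1% of all genes tested) and in 120 that were lower (26.7%, against 38.3%). All 167 called genes were among these. DESeq2 called 91 short genes up (20.3%, against 20.8% of all genes) and 29 down (6.46%, against 18.4%), and all of them were also called by edgeR. When any 1 library of either genotype was left out, fewer short genes were called in both directions, and so were fewer of all genes.

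The tested short genes were weakly expressed. Their median level was 2.33 log2 CPM, against 5.08 for all genes tested. Below 2 log2 CPM, 31.8% of 179 short genes rose and 10.1% fell, and for all genes at this level the shares were 40.3% and 17.3%. From 2 to 4 log2 CPM, 24.8% of 210 short genes rose and 11% fell, against 29.2% and 22.1%. At 4 log2 CPM and over, 8.33% of 60 short genes rose and 20% fell, against 21.8% and 25.1%. Within each of the 3 levels the short genes had lower shares in both directions than all genes. These differences were not tested, nor was the part of the discarded duplicates at the highest level. Per length the order was the other way, with a median of 22.3 CPM per kb for the tested short genes and 9.07 for all genes tested, where the filter itself admits a short gene only at a high level per kb.

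**Figure D2:**
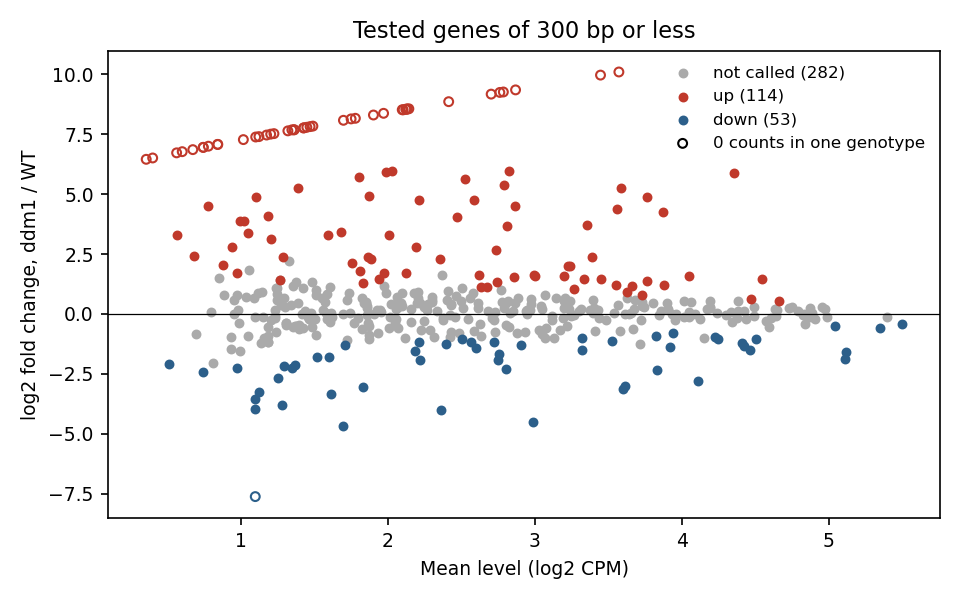
Log2 fold change of *ddm1* over WT (y axis) against mean level in log2 CPM (x axis) for the 449 tested short genes, red for the 114 called up, blue for the 53 called down and grey for the 282 not called. Open circles are genes with 0 counts in 1 genotype, whose fitted fold change depends on the prior count, and they form the band at the top of the plot.

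The short genes that rose were mostly at the floor in WT. Of the 114 up-regulated short genes, 63 (55.3%) had at most 3 counts in each WT library, and 43 of them had none. Among all up-regulated genes 20.8% were at this floor in WT. Of the 53 down-regulated short genes, 7 (13.2%) were at the floor in *ddm1*, against 2.86% of all down-regulated genes. The median log2 fold change of the up-regulated genes was 4.62 as fitted, and 2.85 with the genes that had 0 counts in WT set at their bound against 3 counts per library. For the down-regulated genes it was −1.82 both ways. A gene can pass the filter through 1 genotype alone, so the filter favours genes that differ, and the counts here are a description of what was tested. Of the short genes tested, 119 passed only through *ddm1* and 45 only through WT. Of the 279 that had enough counts in both genotypes, 24 were up-regulated (8.60%) and 31 down-regulated (11.1%). Under the similar minimum of 10 counts in every library, with its own fit, 21.1% of all genes rose and 23.2% fell.

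Ranked by the ratio of mean CPM with 1 CPM added to each mean, which keeps genes with few counts from leading, the first gene that rose was Solyc12g011150.1, a gene of 261 bp on the minus strand of chromosome 12 (chr12:3996313-3996573 in the M82 assembly used by the authors). In the *ddm1* libraries it was counted 261 and 266 times, and in WT 5 and 2 times. Both *ddm1* libraries were far above both WT libraries, at 38.4 ± 1.15 CPM against 0.624 ± 0.349 (SD, n = 2 each), a 58.9-fold difference with a log2 fold change of 5.88 ± 0.33 (SE) and an adjusted p-value of 0.000147 by edgeR. Its nearest annotated gene was 7991 bp away.

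The next was Solyc02g014650.1, a 210 bp gene on the plus strand in a gene-poor region of chromosome 2 (chr2:17021239-17021448), with 23 genes within 500 kb. It had *ddm1* counts of 160 and 143 and 0 counts in both WT libraries, at least 40.7-fold higher in *ddm1* against a floor of 3 counts per library (adjusted p = 0.000360 by edgeR). A second short gene of 198 bp lies 569 bp upstream on the same strand (chr2:17020472-17020669). It had *ddm1* counts of 161 and 115 and 0 in WT, at least 37.2-fold higher. Both genes were thus read in the *ddm1* libraries only, at similar counts.

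Further genes had 0 counts in both WT libraries and more than 70 in each *ddm1* library. A 300 bp gene of chromosome 3 (chr3:31348269-31348568) had 83 and 98 counts in *ddm1*, at least 24.2-fold higher, and its nearest gene was 19786 bp away. A 292 bp gene of the pan-genome set on the same chromosome (chr3:6734880-6735171) had 84 and 86 counts, at least 22.8-fold higher. A 255 bp gene on chromosome 5 (chr5:56782667-56782921) had 75 and 85 counts, at least 21.4-fold higher. These 3 genes gave closely similar counts in both *ddm1* libraries.

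Replicates did not always match so well. A 264 bp gene of chromosome 7 (chr7:4589243-4589506) had 118 counts in *ddm1* replicate 1 and 48 in replicate 2, with 0 in WT. The next short gene on its strand, 3744 bp further and also 264 bp long, had 43 and 13 counts in *ddm1* and 0 in WT. One more, of 192 bp and starting at 4651078, had 57 and 20 counts and again 0 in WT. All 3 were higher in *ddm1* replicate 1 than in replicate 2. The sequences of these genes were not compared here.

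Other genes rose from a low but present level. A 171 bp gene of chromosome 10 (chr10:37973217-37973387) had *ddm1* counts of 156 and 143 and WT counts of 1 and 5 (38.7-fold higher), with 11 genes within 500 kb. A 237 bp gene near the end of the same chromosome (chr10:60177964-60178200) had *ddm1* counts of 148 and 192 and WT counts of 4 and 5 (29.6-fold higher). A 195 bp gene in the sparsest surroundings of those described, with 4 genes within 500 kb (chr12:25250158-25250352), had *ddm1* counts of 208 and 152 and WT counts of 9 and 6 (19.2-fold higher). A 258 bp gene of chromosome 2 (chr2:43768961-43769218) had *ddm1* counts of 90 and 83 and 1 count in each WT library, a ratio of 69.6 with a counting interval from 19.0 to 580. In each of these genes both *ddm1* libraries lay well above both WT libraries. A 295 bp pan-genome gene of chromosome 12 (chr12:2997641-2997935) had *ddm1* counts of 159 and 128 and WT counts of 3 and 8 (20.6-fold higher), and it overlaps a gene on the opposite strand.

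By the same ranking, Solyc08g068480.1 came first among the short genes that fell. It is a 237 bp gene on the minus strand of chromosome 8 (chr8:58468326-58468562), with *ddm1* counts of 4 and 5 and WT counts of 89 and 81. The levels were 0.654 ± 0.0746 CPM in *ddm1* and 15.4 ± 0.173 CPM in WT (SD, n = 2 each), 22.8-fold lower in *ddm1*, with a log2 fold change of −4.51 ± 0.37 (SE) and an adjusted p-value of 0.000355 by edgeR. Solyc10g055790.1, of 219 bp on the minus strand of chromosome 10 (chr10:57612600-57612818), had *ddm1* counts of 2 and 6 and WT counts of 58 and 49. Its level was 16.1-fold lower in *ddm1* (log2 fold change −4.01 ± 0.50, adjusted p = 0.00115 by edgeR). Both genes had at least 49 counts in each WT library and at most 6 in each *ddm1* library.

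Chromosome 10 held 2 more of the first 12 genes that fell, both in gene-poor regions. A 171 bp gene (chr10:50060819-50060989) had *ddm1* counts of 22 and 12 and WT counts of 131 and 112, 8.76-fold lower. A 267 bp gene (chr10:52969396-52969662) had *ddm1* counts of 6 and 32 and WT counts of 83 and 158. Its libraries scattered in both genotypes, and its adjusted p-value of 0.01 by edgeR became 0.0802 without WT replicate 2. A 273 bp gene of chromosome 9 (chr9:57207866-57208138) had *ddm1* counts of 4 and 56 and WT counts of 198 and 140. The *ddm1* libraries of this gene differed from each other, and its adjusted p-value of 0.0213 rose to 0.107 without WT replicate 1, 0.0814 without WT replicate 2 and 0.115 with DESeq2.

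A 300 bp gene of chromosome 11 (chr11:2119546-2119845) was the 1 down-regulated short gene with 0 counts in both *ddm1* libraries. In WT it was counted 25 and 19 times, so that it was lower in *ddm1* by at least 9.07-fold. The neighbouring short gene, 2562 bp upstream and of the same length, had *ddm1* counts of 4 and 9 and WT counts of 5 and 5 and was not called. A 204 bp gene of chromosome 6 (chr6:46923571-46923774) had *ddm1* counts of 1 and 2 and WT counts of 32 and 35, a ratio of 27.7 with a counting interval from 9.09 to 138. A 180 bp gene of chromosome 7 (chr7:58869529-58869708) had *ddm1* counts of 0 and 3 and WT counts of 19 and 22, a ratio of 17 with an interval from 5.42 to 85.7. In all 3 called genes both WT libraries were well above both *ddm1* libraries.

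The 4 other genes of the first 12 that fell were on chromosomes 3, 4, 7 and 12. A 228 bp gene (chr3:57772412-57772639) had *ddm1* counts of 4 and 6 and WT counts of 37 and 31, and a 288 bp gene (chr4:4326237-4326524) had 5 and 2 against 25 and 34. A pan-genome gene of 119 bp (chr7:67766383-67766501) had 2 and 2 against 19 and 28. It overlaps a gene on the opposite strand. A 291 bp gene (chr12:67033051-67033341) had 38 and 26 against 166 and 100, a fall of 5.09-fold from a higher level. In none of these 4 did the libraries of the genotypes overlap.

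**Figure D3:**
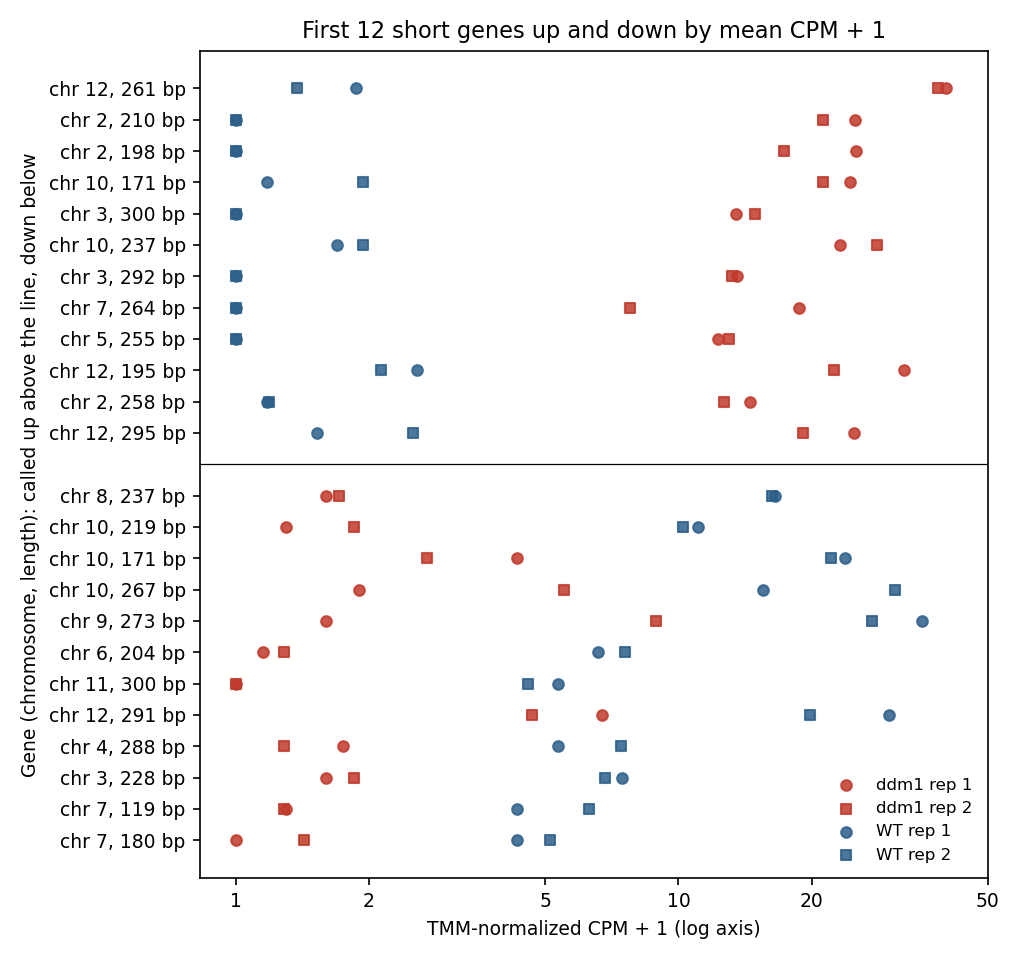
TMM-normalized CPM plus 1 on a log axis (x axis) in each of the 4 libraries for the first 12 short genes that rose and the first 12 that fell, ranked by the ratio of mean CPM with 1 CPM added to each mean, each labelled by chromosome and length (y axis). Red points are *ddm1*, blue points are WT, circles and squares are replicates 1 and 2, and points at 1 had 0 counts.

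Most of the short genes with most counts changed less, except for a pair on chromosome 8 given after them. A 213 bp gene of chromosome 9 (chr9:60550514-60550726) had *ddm1* counts of 253 and 274 and WT counts of 286 and 283, a log2 fold change of −0.43 ± 0.12 (adjusted p = 0.0266 by edgeR), which was the smallest called fall. A 291 bp gene of chromosome 3 (chr3:58697318-58697608) had *ddm1* counts of 269 and 280 and WT counts of 230 and 249, and it did not pass the test (log2 fold change −0.12 ± 0.14, adjusted p = 0.505). A 279 bp gene of chromosome 10 (chr10:549137-549415) had 211 and 234 against 269 and 267 (1.5-fold lower), and a 261 bp gene of chromosome 4 (chr4:64697738-64697998) had 168 and 203 against 202 and 221 (1.42-fold lower), both called. The *ddm1* libraries are larger, so scaling to CPM lowers their values further. Where discarded duplicates limit the counts of a short gene, this scaling alone lowers its CPM in *ddm1*. Its part in these calls was not tested.

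A pair of short genes of 276 and 297 bp, 56 bp apart on the minus strand of chromosome 8 (chr8:57217689-57218317), was also among the most counted. The first had *ddm1* counts of 79 and 161 and WT counts of 298 and 278, 3-fold lower, and the second had 67 and 137 against 310 and 292, 3.69-fold lower. Both fell, and in both genes *ddm1* replicate 2 had about the same excess over replicate 1.

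Some short genes that rose lay beside others that rose. Of 30 pairs of adjacent short genes in which at least 1 was up-regulated, both were up-regulated in 6, the other was not called in 23 and it was down-regulated in 1. Those not called include genes with 0 counts in every library, which were never tested. The genes of a pair lay up to 199540 bp apart, and the same share over all adjacent genes was not taken. On chromosome 12, 3 genes in a row on the same strand (chr12:310275-311322), of 285, 285 and 204 bp, had 31 and 49, 38 and 45, and 24 and 36 counts in the *ddm1* libraries. In WT their counts were 0 and 1, 1 and 1, and 0 and 0. On chromosome 2, a gene of 186 bp (starting at 17119369) and one of 159 bp, 7572 bp further, had 55 and 48, and 37 and 55 counts in *ddm1*, with 0 in WT. On chromosome 10, neighbours of 150 and 195 bp, 62 bp apart (chr10:51963995-51964401), had 19 and 27, and 34 and 29 counts in *ddm1*, with 2 or 3 in each WT library. These groups, with the pairs of chromosomes 2 and 7 given above, hold all 6 pairs in which both adjacent short genes were called up. Another short gene lies 154 bp from the pair of chromosome 2 given above, on the opposite strand. It had *ddm1* counts of 0 and 6 and was not called.

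To describe this for all tested short genes, the nearest annotated gene on either strand was taken, whatever its length, and sorted by strand and distance. A gene on the same strand was therefore not used where one on the opposite strand lay closer. For 104 tested short genes the nearest gene was on the same strand within 1 kb. Of these neighbours 93 were tested, and 86 of the 93 were longer than the short gene itself. Beside up-regulated short genes, 26 of 29 tested neighbours were up-regulated (89.7%) and 1 was down-regulated. Beside down-regulated short genes, 9 of 10 tested neighbours were down-regulated and 0 were up-regulated. Where the nearest gene within 1 kb was on the opposite strand, 4 of 12 tested neighbours of up-regulated short genes rose and 4 fell (33.3% each), and of 4 beside down-regulated ones 2 rose and 1 fell. Where it was over 1 kb away on either strand, 20 of 37 beside up-regulated short genes rose (54.1%) and 9 of 24 beside down-regulated ones fell (37.5%). On the same strand within 1 kb, beside short genes that were tested and not called, 7 of 54 neighbours rose (13%) and 5 fell (9.26%). For all up-regulated genes taken the same way, 322 of 637 tested neighbours rose (50.5%), and for all down-regulated genes 239 of 615 fell (38.9%). These shares are a description, since neighbours share their surroundings and a pair can be counted from both sides. On the same strand within 1 kb, the median gap to the nearest gene was 194 bp for up-regulated and 56 bp for down-regulated short genes. For all up-regulated and all down-regulated genes it was 471 and 509 bp. Reads over more than 1 gene were given to each of them, and the part of shared reads in these shares was not tested. The counts do not tell whether such neighbours are read from a single transcript.

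**Figure D4:**
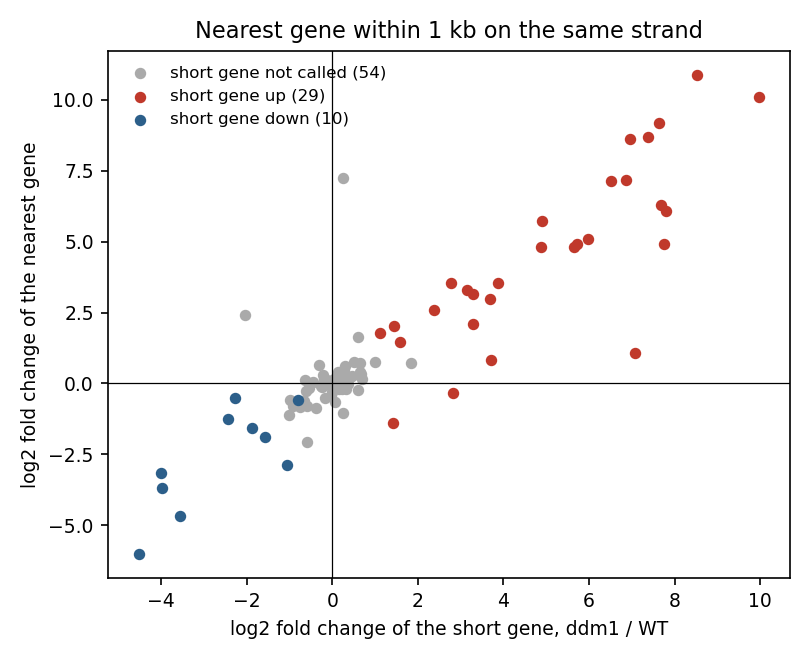
Log2 fold change of the nearest gene (y axis) against that of the short gene (x axis), each as *ddm1* over WT, red where the short gene was called up, blue where down, grey where not called. Shown are the 93 tested pairs in which the nearest gene on either strand lay on the same strand within 1 kb. The sign was the same in 74 of 93 pairs, and the most extreme values come from genes with 0 counts in 1 genotype, whose fitted value depends on the prior count.

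By position, the ratio of expressed short genes between the genotypes was larger in gene-poor regions, and so was the difference at 1 CPM. There 11.4% and 11.5% of the 1472 short genes were expressed in the *ddm1* libraries and 7.27% and 7% in WT, a ratio of 1.60. In the other regions 21.5% and 21.6% of 1676 were expressed in *ddm1* and 18.5% and 18.4% in WT, a ratio of 1.17. The differences were 4.31 and 3.10 percentage points. With at least 10 counts after thinning, the differences were level at 2.62 and 2.68 points, and the ratios were 1.47 and 1.17. For all genes at 1 CPM the ratios were 1.26 in gene-poor regions and 1.06 elsewhere, and the differences 7.63 and 3.91 points. Gene-poor short genes took 0.0909% and 0.0917% of all counts in *ddm1* and 0.0677% and 0.0654% in WT (log2 ratio 0.46), and the other short genes 0.298% and 0.318% against 0.273% and 0.262% (log2 ratio 0.20). In both kinds of region the libraries of the genotypes did not overlap, and whether the regions differ was not tested.

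Of 130 tested short genes in gene-poor regions 40 rose (30.8%, Wilson 95% interval 23.5% to 39.2%) and 14 fell (10.8%). Of 319 in the other regions 74 rose (23.2%, 18.9% to 28.1%) and 39 fell (12.2%). The intervals overlap. For all genes tested, 29.5% rose in gene-poor regions and 24.6% elsewhere, and 22.0% and 23.7% fell. Per annotated short gene the order was reversed, with 2.72% up-regulated in gene-poor regions and 4.42% elsewhere, where fewer were tested (8.83% against 19.0%). When at least 10 counts were required in every library, which removes the genes that were silent in WT, the share that rose was 6.78% in gene-poor regions and 11.8% elsewhere, and for all genes 17.1% and 21.8%.

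Along the chromosome arms, taken in 5 bands from the chromosome end to its middle, the short genes were spread more evenly than all genes. The outermost band held 1054 (33.5%) and the innermost 377 (12%), against 50.1% and 6.31% of all genes. The share of short genes expressed in both libraries went from 20.6% in *ddm1* and 17.1% in WT in the outermost band to 9.28% and 5.84% in the innermost. For all genes these shares were 70% and 66.4% in the outermost band and 36.2% and 29.7% in the innermost. In the second band the genotypes were level, at 12.5% and 12.4%, and there 18 short genes rose and 21 fell (18.8% and 21.9% of those tested). For all genes of this band the shares expressed were 57.2% and 51.9%, and 27% of those tested rose and 23.5% fell. In bands 3 and 4 from the end, 13.1% and 13.5% were expressed in *ddm1* and 8.71% and 8.17% in WT, and 19 and 16 short genes rose (29.2% and 32.7%) while 6 and 1 fell (9.23% and 2.04%). For all genes of these bands 47.5% and 42.1% were expressed in *ddm1* and 42.5% and 35.8% in WT, 27.5% and 27.4% rose, and 22.5% and 23.5% fell. In the outermost band 55 short genes rose (26.3%) and 22 fell (10.5%), against 24% and 23.7% of all genes. In the innermost 6 rose (20%) and 3 fell (10%), against 28.2% and 22.8%.

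**Figure D5:**
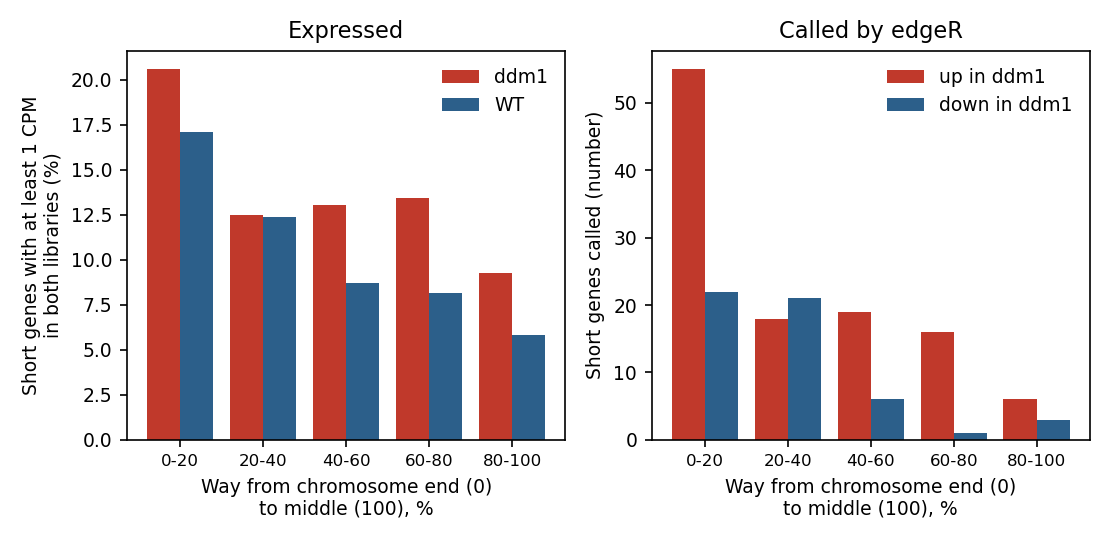
Percentage of short genes with at least 1 CPM in both libraries of *ddm1* (red) and of WT (blue) on the left, and number of short genes called up (red) or down (blue) in *ddm1* on the right, in 5 bands from the chromosome ends (0) to the chromosome middles (100). The genotypes were level in the second band (12.5% and 12.4%), and *ddm1* was higher in the other 4.

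Every chromosome carried short genes, from 214 on chromosome 8 to 322 on chromosome 1, and each held tested genes that rose and others that fell. Between 13.3% (4 of 30, chromosome 8) and 38.5% (10 of 26, chromosome 9) of the tested short genes rose, against 25.4% and 26.1% of all genes tested on these chromosomes. Between 3.45% (1 of 29, chromosome 11) and 24.2% (8 of 33, chromosome 10) fell, against 23% and 24.6%. With so few genes on each chromosome these shares are imprecise, and they were not compared by a test.

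Within the short genes, the identifier and the strand went with differences in the counts. Short genes with Solyc numbers were expressed in 20.5% and 20.8% of cases in *ddm1* and 16.4% and 16.2% in WT, and those of the pan-genome set in 7.45% and 6.77% and in 5.08% and 5.19%. Of 397 tested Solyc genes 96 rose and 45 fell, and of 52 tested pan-genome genes 18 rose and 8 fell (24.2% and 11.3%, and 34.6% and 15.4%). Over genes of every length, 25.3% of Solyc genes rose and 23.6% fell, and of pan-genome genes 37.4% rose and 12.3% fell. On the plus strand 74 of 239 tested short genes rose (31.0%) and on the minus strand 40 of 210 (19.0%), while for all genes the shares were 25.8% and 24.9%. The difference between strands was noticed in the data and not tested.

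Detection varied with length within the limit. Of the 156 short genes of 75 bp or less, 19 had a count and 1 was tested, a 60 bp gene of chromosome 6 that fell, with *ddm1* counts of 8 and 8 and WT counts of 26 and 20. Of the genes over 250 bp, 148 were tested, and 42 of them rose (28.4%) and 19 fell (12.8%). Over all genes tested the shares were 25.3% and 23.7%. Just inside the limit, within its last 30 bp, 21 of 87 tested genes rose (24.1%) and 11 fell (12.6%). In the 30 bp beyond it 27 of 109 rose (24.8%) and 34 fell (31.2%), and 12 of those that fell were on chromosome 4. Dropping the short genes that overlap another annotated gene left 110 up-regulated and 51 down-regulated genes.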

How the data were processed

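Poly(A) RNA-seq libraries of *ddm1* and WT leaves (2 each) were analysed from the raw count per gene and library that the authors deposited. Per the labels and the header of the count table, the authors trimmed the single-end reads (Trimmomatic 0.38), aligned them to the M82 genome using HISAT2, discarded PCR duplicates and obtained stranded gene counts from featureCounts over whole gene intervals, with a mapping quality of at least 30. The multi-mapping option was on, but HISAT2 gives multi-mapped reads a quality below this minimum. Reads over more than 1 gene were given to all of them, so overlapping or adjoining genes can share reads. The study describes the replicates as independent biological ones, and batches of preparation or sequencing are not given.

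Low genes were removed by filterByExpr (minimum count 10), TMM factors were applied and the genotype was tested across all 21289 genes with edgeR 4.0.16 (glmQLFit, glmQLFTest, R 4.3.3), with Benjamini-Hochberg adjustment. DESeq2 1.42.0 was an alternative. The fit was tested on simulated data. Libraries held 6610591 and 6887057 (*ddm1*) and 5827940 and 5462981 counts (WT). Replicates differed by more than sampling noise over the short genes, the chi-square divided by its degrees of freedom being 2.59 (*ddm1*) and 2.02 (WT), and were kept apart. The floor was 3 counts per library of a genotype, and folds against 0 counts are bounds. Intervals are 95% and cover counting error only.

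The members, lists and rules were chosen with earlier results of these data known. Named genes were those called, with non-overlapping genotypes and no gene overlapping on the same strand, ranked by the log2 ratio of mean CPM with 1 CPM added: the first 12 in each direction. The genes with most counts, the neighbouring pairs and groups and the 60 bp gene were singled out after their values were seen. The table of gene names (assembly SLM_r2.1) matched 0 of the short genes. The DDM1 genes and the sequences of the short genes are not analysed here. Alternatives were other normalizations, filters, thresholds, region definitions and length limits, a replicate block and each library left out.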

Additional observations from a re-analysis of the deposited data

How the results depend on the processing

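The higher share of expressed short genes in *ddm1* and their higher share of all counts kept their direction under every alternative tried for them. The 53 down-regulated short genes became 29 with DESeq2, 34 under a minimum of 10 counts in every library, 26 at an adjusted p-value under 0.01 and 34 at a length of 250 bp or less, and leaving out 1 library gave 30 to 49. The 114 up-regulated ones became 30 with at least 10 counts in every library and 72 at 250 bp or less, where fewer genes enter by construction. The median log2 fold change of 0.22 was 0.67 when every gene with a count entered (minimum 1), 0.08 under the minimum of 10 counts, 0.27 with total counts as library size (an alternative added after seeing the data) and from 0.19 to 0.29 with 1 library left out. The share that rose, gene-poor minus other regions, turned from 7.57 to −5.04 percentage points with at least 10 counts in every library, and the share that fell went from −1.46 to −7.24 points with gene-poor set as the lowest 10%. With every gene of at least 1 count, 115 up-regulated genes were at the floor in WT and 12 down-regulated ones in *ddm1*. Of 266 alternative values for the 24 named genes, 262 kept their call, 4 lost it and 0 changed direction. The cause of the changes was not tested except where stated.

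The replicate number as a block gave 107 up-regulated and 50 down-regulated short genes and a median of 0.24. Deviations of same-numbered libraries had a correlation of −0.0145 across 21289 genes. This value cannot tell whether same-numbered libraries shared growth, preparation or sequencing, for which no batches are given.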

Other observations

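The 789 short genes that had a count but were too low for the test also had more counts in *ddm1*. Their counts, not scaled to the larger *ddm1* libraries, summed to 2077 and 2105 in the *ddm1* libraries and to 1018 and 907 in WT. The same was not taken over all genes too low for the test, so these values are not particular to the short genes. Of these genes 375 had counts in *ddm1* only, 105 in WT only and 309 in both genotypes. By mean level, 530 were higher and 259 lower in *ddm1*, and the largest single count was 47. Over the 449 tested short genes (genes are no independent replicates) the *ddm1* libraries correlated at 0.918 in log2 CPM and the WT libraries at 0.953, while pairs of 1 *ddm1* and 1 WT library gave 0.451 to 0.525. The filter admits genes through 1 genotype alone, which by itself favours lower values between the genotypes than within them. Its part was not tested, and the same correlations were not taken over all genes.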
